A study of Mus musculus with 9 samples.

Results

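The 42 genes described here encode the extracellular matrix and cytoskeleton of fibroblasts: collagens, elastic fibre proteins, crosslinking enzymes, matrix glycoproteins and proteoglycans, matrix proteases with their inhibitors, and mesenchymal cytoskeletal and surface proteins. They were chosen by symbol with earlier results of these data known, and all 42 were found among the 52264 rows of the count table. Values over all tested genes are set beside them below for scale, not as a test of the list. Of these, 41 passed the low-count filter, as did 15366 genes in all. Eln, the elastin gene, did not pass, with 2 to 11 counts per library. The libraries came from mouse embryonic stem cells (ESCs) labelled beta-catenin-/-, a genotype that all 9 share, and the question was how the 42 genes vary together across them.

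The 3 groups held 3 libraries each, and all had spent the night before extraction in N2B27, a serum-free medium. The control group was labelled untreated, the BRD0705 group received an inhibitor selective for GSK3α, and the CHIR group received CHIR-99021, which inhibits both GSK3α and GSK3β. Exposure lasted 30 min, at doses not given in the labels. For expansion the labels name 3 µM CHIR-99021, 1 µM PD03 (a MEK inhibitor) and 40 ng/ml LIF, so every group had met CHIR-99021 before, and they name feeder-treated dishes. Whether the genotype is that of 1 clone, and whether the libraries of a group came from separate cultures, is not stated. The p-values below therefore measure only the spread between these libraries, which may be technical.

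Fibroblasts build the matrix of connective tissue. Fibrillar collagens assemble from trimers into fibres, lysyl oxidases crosslink them, fibrillins and fibulins form elastic microfibrils, and small proteoglycans coat the fibrils and set their spacing. Matrix metalloproteinases cleave this matrix and TIMPs inhibit them. Feeder layers for mouse ESCs are usually embryonic fibroblasts, which make these proteins in quantity. In bulk RNA, fewer cells of a type and less RNA per cell cannot be told apart.

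RefSeq promoter windows, on build GRCm38.p6, were found for 27 of the 42 genes. Those of Col5a1, Col6a2 and Bgn are shown because these genes passed the threshold in a comparison with control. That of Col1a2 is shown as the most abundant fibrillar collagen that passed none, and that of Col18a1 as the most abundant of the other collagens that passed none. Only bases before the annotated gene are printed, 5′ to 3′ on the gene's strand, at chr2:27886175-27886380 (+), chr10:76623631-76623880 (-), chrX:73483351-73483600 (+), chr6:4505368-4505617 (+) and chr10:77166531-77166780 (-). Capitals mark a GC box (GGGCGG) or a CCAAT box (CCAAT) on either strand; where capitals run on for 10 bases in Bgn, 2 GC boxes overlap.
Col5a1: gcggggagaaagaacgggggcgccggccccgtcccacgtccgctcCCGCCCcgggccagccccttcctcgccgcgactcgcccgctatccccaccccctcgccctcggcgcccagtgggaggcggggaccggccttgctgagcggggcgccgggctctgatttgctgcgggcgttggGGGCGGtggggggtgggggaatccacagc
Col6a2: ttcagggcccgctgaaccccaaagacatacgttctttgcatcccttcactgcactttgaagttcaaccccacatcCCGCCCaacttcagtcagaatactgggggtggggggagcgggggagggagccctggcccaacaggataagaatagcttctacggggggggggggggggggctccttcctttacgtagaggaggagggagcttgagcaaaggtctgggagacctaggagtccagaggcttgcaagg
Bgn: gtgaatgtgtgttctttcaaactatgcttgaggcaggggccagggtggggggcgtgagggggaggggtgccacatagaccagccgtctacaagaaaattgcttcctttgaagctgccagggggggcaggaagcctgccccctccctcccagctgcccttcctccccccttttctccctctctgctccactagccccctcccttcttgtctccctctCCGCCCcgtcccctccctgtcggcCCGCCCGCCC
Col1a2: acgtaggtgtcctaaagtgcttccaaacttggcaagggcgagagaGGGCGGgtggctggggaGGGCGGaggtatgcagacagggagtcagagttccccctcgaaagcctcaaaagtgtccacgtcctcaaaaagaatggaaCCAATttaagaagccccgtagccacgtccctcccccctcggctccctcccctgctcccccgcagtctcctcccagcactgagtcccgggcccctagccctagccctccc
Col18a1: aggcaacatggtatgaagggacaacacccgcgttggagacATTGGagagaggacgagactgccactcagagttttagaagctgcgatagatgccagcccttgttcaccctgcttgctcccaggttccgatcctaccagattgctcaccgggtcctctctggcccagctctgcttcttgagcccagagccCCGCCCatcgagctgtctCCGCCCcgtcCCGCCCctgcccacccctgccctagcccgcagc
All 5 stretches hold a GC box, and the 3 GC boxes of Bgn lie within 34 bases of the gene. Col18a1, which varied unlike the others, also has 3, within 61 bases. Over windows of 250 bases before and 50 after a start, both strands, GGGCGG was in 16 of the 27 (59.3%, against 63.6% of the windows of 11438 tested genes). CCAAT was in 12 (44.4% against 39.3%), the TATA box TATAAA in 5 (18.5% against 7.3%), the TEAD core GGAATG in 4 (14.8% against 12.1%) and the AP-1 site TGANTCA in 1 (3.7% against 5.0%). The CArG box was in 0 of the 27 windows and in 1.2% of those of tested genes. Matches are letters only, and median GC content of the windows was 60.3% against 60.7%. The remaining 15 genes, Col12a1, Col1a1, Col5a2, Dcn, Eln, Fn1, Lox, Loxl1, Loxl2, Lum, Mfap5, Mmp2, Tagln, Thbs1 and Thy1, are named only.

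Depth was 17359422 to 20773337 counts per library. The 10 pluripotency genes listed as ESC markers averaged 48.4 (Zfp42) to 949 (Esrrb) CPM, counts scaled to a common library size. Ctnnb1, the β-catenin gene, was at 302 to 371 CPM in the 9 libraries; counts over a whole gene do not show which exons they come from, so they check nothing about the deletion. Lists of other lineages held genes near 0 over the 9 libraries and genes well above it. Neurog2 (neural) had no count, and mean levels were 0.0109 CPM for Foxa2 (endoderm), 0.104 for Cdx2 (trophoblast), 0.317 for Ptprc (leukocyte), 0.385 for Cdh5 (endothelium) and 0.0981 for Myod1 (muscle). All of these but Ptprc were the lowest of their lists. The highest of the same lists were Map2 at 5.31 CPM, Dab2 at 8.25, Ascl2 at 11.4, Cd68 at 41.6, Tek at 15.2 and Des at 39.9. Mesenchymal transcription factors were present, led by Prrx1 (26.4 ± 1.98 CPM, SD, n = 9), with 9 of 17 at 1 CPM or more and Tcf21 without a count. Of 39 Hox genes, 28 passed the low-count filter and Hoxc6 was highest (4.89 ± 0.782 CPM, SD, n = 9).

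The matrix and cytoskeleton genes ranged from abundant to scarce. Fn1, fibronectin, an adhesive glycoprotein, had the most counts (2516 CPM over the 9 libraries, the 99.8th percentile of tested genes), and Lum, the proteoglycan lumican, the fewest of the 41 (3.06 CPM). The median of the 41 was 107 CPM. Per kilobase of the longest transcript, the scale on which genes can be compared, Sparc, a collagen-binding glycoprotein, was highest at 478 CPM per kb. Fn1 stood at 299, Col1a1 at 267, Bgn at 177, Lox at 165, Vim at 120 and Lum at 0.739. The median was 27.4 CPM per kb.

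Before any comparison of groups, 3 libraries stood apart in these genes. Of the 41, control replicate 1 was above both other control libraries in 40, where 38.0% of all tested genes were. Control replicate 2 was below both in 32, where 35.1% of all tested genes were. CHIR replicate 3 was below both other CHIR libraries in 35, where 35.0% of all tested genes were. The BRD0705 libraries had no such order: BRD0705 replicate 1 was below both others in 14 genes, replicate 2 in 13 and replicate 3 in 14. Of all tested genes, 33.1%, 31.7% and 35.1% were.

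The shared level moved accordingly. Summed over the 42 genes, control replicates 1 to 3 held 11600, 10240 and 10390 CPM, BRD0705 replicates 12470, 12490 and 11910 CPM, and CHIR replicates 11920, 12690 and 11120 CPM. All 3 BRD0705 libraries were above every control library, and CHIR replicate 3 was below control replicate 1. The mean was 10750 ± 747 CPM in control, 12290 ± 328 in BRD0705 and 11910 ± 785 in CHIR (SD, n = 3 each), a ratio to control of 1.14 and 1.11. The same held by mean deviation, the average over the 41 genes of log2 CPM minus the gene's own mean over the 9 libraries. It was 0.02, -0.20 and -0.15 in control, 0.09, 0.06 and 0.07 in BRD0705, and 0.09, 0.12 and -0.11 in CHIR. In control replicate 2, 0 of the 41 genes were above their own mean, and in control replicate 3, 2 were. CHIR replicate 3 had 7 above, control replicate 1 had 21, and each other library had 32 to 37.

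**Figure D1:**
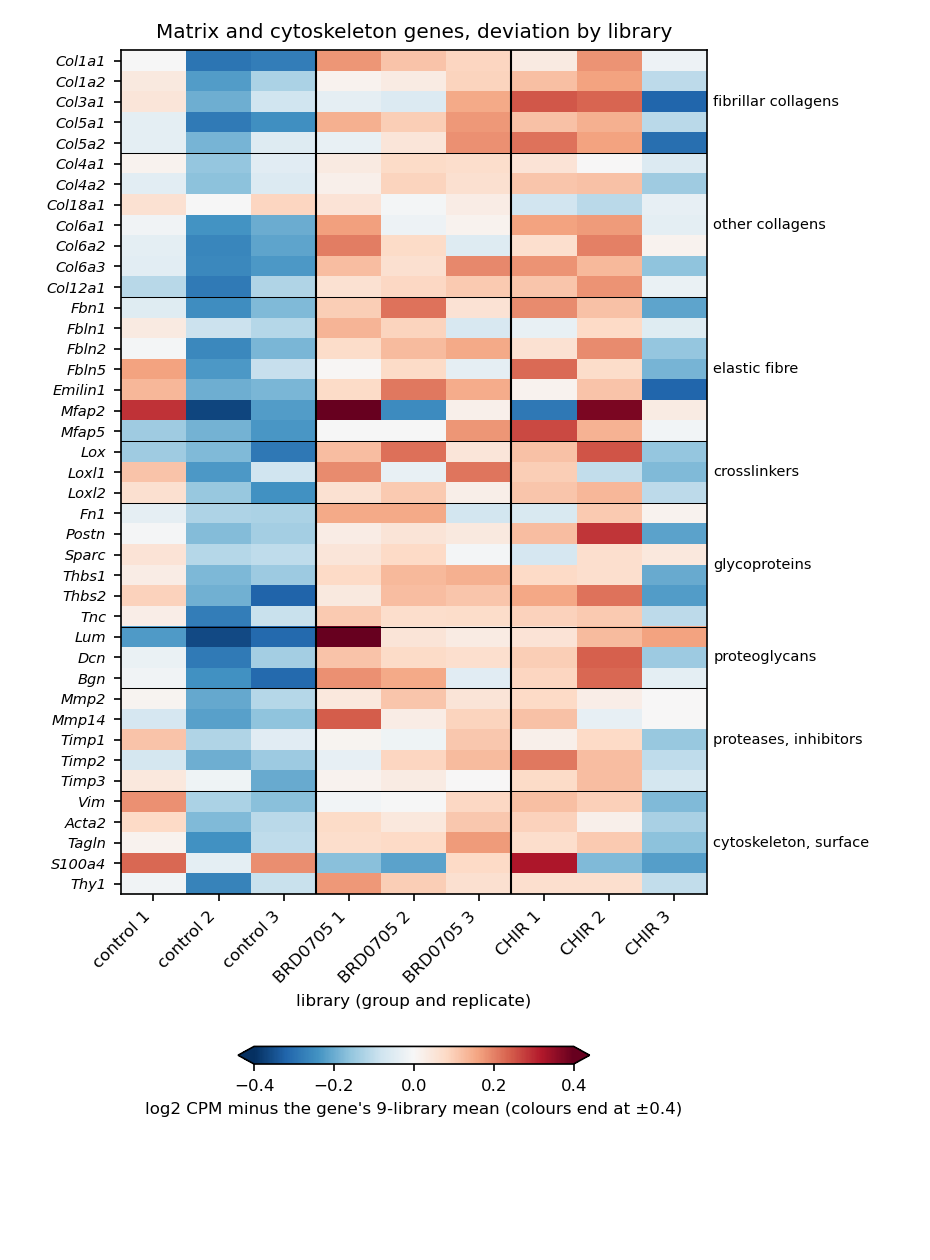
Deviation of each gene's log2 CPM from its own mean over the 9 libraries, with genes in rows by role, libraries in columns and colour from blue (below) to red (above). Control replicates 2 and 3 and CHIR replicate 3 are mostly blue, while Col18a1 and S100a4 break the columns.

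Over the 9 libraries the genes varied together. Across the 820 pairs of the 41 genes the median Pearson r of log2 CPM was 0.72 (quartiles 0.53 and 0.84; median Spearman rho 0.65), and 93.2% of pairs were above 0. Over all 9564 tested genes whose mean log2 CPM reached 3, the median r was 0.0039, with 50.3% of pairs above 0. The first principal component held 66.3% of the variance of the 41 genes. Taking deviations from the group means, which removes the differences between groups, left a median r of 0.67 and 60.7% on the first component, so the shared movement was also present among libraries of 1 group. These correlations are over 9 libraries that share their scaling, and they carry no p.

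Set against the mean of the other 40, the median gene had r = 0.87, and 25 of the 41 were over 0.8. The closest were Col5a1 (r = 0.971), a chain of type V collagen, which starts fibril assembly, Fbln2 (0.966), Tnc (0.965), Col6a3 (0.963) and Dcn (0.963). These span fibrils, elastic fibres, glycoproteins, microfibrils and proteoglycans. By role group, the correlation of a group's mean with the mean of all 41, of which its genes are part, was 0.98 for the elastic fibre, crosslinker, glycoprotein, other collagen and protease genes, and 0.97 for the fibrillar collagens. It was 0.88 for proteoglycans and 0.83 for the cytoskeletal and surface genes.

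The slope of a gene on the mean of the others, in log2 per log2, had a median of 1.06, and 37 of the 41 lay between 0.5 and 1.5. On deviations from group means the slopes ran from -0.06 to 1.88, and 29 lay in that range. Thbs2, an anti-angiogenic thrombospondin, had the steepest, 1.51. Shallow slopes came from Sparc (0.37), Fbln1 (0.51), Col4a1 (0.54), Fn1 (0.56) and the inhibitors Timp3 (0.57) and Timp1 (0.59). The abundant glycoproteins Sparc and Fn1 also followed the others less closely, both with r = 0.60. Lum (r = 0.63) and Mfap2 (0.47), the least abundant of the 41 at 3.06 and 4.30 CPM, had the widest ranges over the libraries, 0.83 and 0.77 on the log2 scale.

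Col18a1 and S100a4 did not follow the rest over the 9 libraries. Col18a1 encodes the basement membrane collagen that releases endostatin. It was at 430, 412 and 438 CPM in control, 428, 411 and 421 in BRD0705 and 391, 383 and 404 in CHIR. Control and BRD0705 overlapped, and every CHIR library was below every control library. Its r with the mean of the others was -0.35 and its slope -0.18. S100a4, a calcium-binding protein used as a fibroblast marker, was at 12.5, 10.4 and 12.1 CPM in control, 9.46, 9.15 and 11.2 in BRD0705 and 13.4, 9.41 and 9.12 in CHIR, and its groups overlapped. Its r was -0.06 over the 9 libraries. On deviations from group means its r was 0.46 and its slope 1.01.

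**Figure D2:**
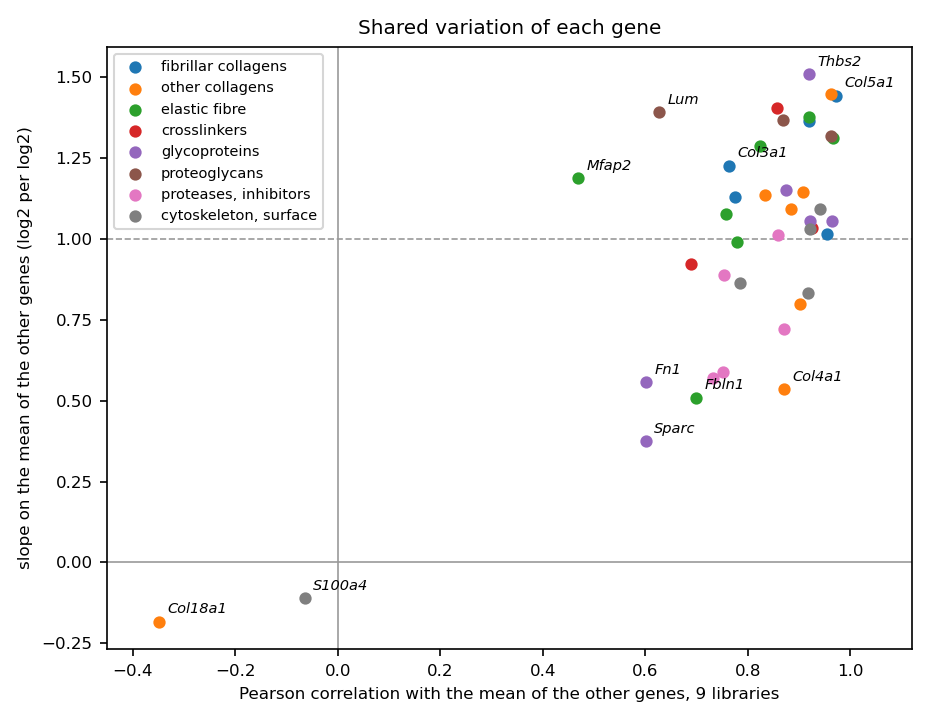
Pearson correlation over 9 libraries of each of the 41 genes with the mean of the other 40 (horizontal axis) against its slope on that mean (vertical axis, log2 per log2), coloured by role; the dashed line is a slope of 1. Most points lie at correlations over 0.7 and slopes of 0.5 to 1.5, and Col18a1 and S100a4 lie below 0 on both axes.

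Pairs of chains that can share 1 collagen molecule had r of 0.74 to 0.93, where the median of all pairs was 0.72. Col1a1 and Col1a2, the chains of type I collagen, lie on different chromosomes and had r = 0.84. Their log2 ratio of CPM ranged from 1.71 to 2.02. Col6a1 and Col6a2, neighbours 85162 bases apart on chromosome 10, had r = 0.93, and Col6a1 with Col6a3, on another chromosome, 0.87. Col6a2 with Col6a3, of the same trimer, had 0.75, and 0.44 on deviations from group means. Col4a1 and Col4a2, genes of basement membrane collagen on opposite strands of chromosome 8, had 0.84, and Col5a1 with Col5a2 0.74. The starts behind the first promoter windows of Col4a1 and Col4a2 are 21 bases apart. As annotated, Col4a1 ends at 11312889 and Col4a2 begins at 11312805, so the genes overlap there. Without strand, reads in that overlap cannot be told apart. Col3a1 and Col5a2, 24625 bases apart on chromosome 1 and not chains of 1 molecule, had 0.95. Lum and Dcn, neighbours 47338 bases apart on chromosome 10, had 0.65, and 0.16 on deviations from group means.

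The first comparison set BRD0705 against control. By edgeR's quasi-likelihood test at an adjusted p under 0.05, 3 of the 41 genes rose and 0 fell: 2 of 5 fibrillar collagens, 0 of 7 other collagens, 1 of 3 crosslinkers and 0 of the remaining genes. Of all 15366 genes, 1.22% passed in either direction and 0.69% were higher. The 3 were Col1a1, Col5a1 and Lox, an enzyme that oxidises lysines so that collagen and elastin crosslink. Col1a1 (chr11:94936224-94953042) was at 1573, 1285 and 1301 CPM in control and 1779, 1704 and 1670 in BRD0705. No BRD0705 library reached down to control, and it rose by 0.31 ± 0.07 on the log2 scale (SE of the fit; adjusted p = 0.0405 by edgeR). Col5a1 (chr2:27886381-28039510) was at 268, 227 and 233 CPM in control and 305, 295 and 311 in BRD0705, also without overlap, and rose by 0.32 ± 0.07 (edgeR adjusted p = 0.0342). Lox, on chromosome 18, was at 709, 693 and 643 CPM in control and 853, 912 and 810 in BRD0705, without overlap. Its change was 0.33 ± 0.08 (edgeR adjusted p = 0.0452).

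Most of the other genes had small positive differences that did not pass. Because these genes varied together over the libraries, the counts of genes that follow are not independent observations. The log2 fold change was above 0 in 39 of the 41, with a median of 0.19 against -0.0038 over all tested genes, and 26 had an unadjusted p under 0.05, as did 15.9% of all tested genes. In 21 of the 41 (51.2%) every BRD0705 library was above every control library, against 9.83% of all tested genes. Beyond the 3 above these were Col5a2, Col4a1, Col4a2, Col6a3, Col12a1, Fbn1, Fbln2, Mfap5, Postn, Thbs1, Tnc, Lum, Dcn, Mmp2, Mmp14, Timp2, Tagln and Thy1. By role the median log2 fold change was 0.16 in fibrillar collagens, 0.20 in other collagens, 0.22 in elastic fibre genes, 0.19 in crosslinkers, 0.18 in glycoproteins, 0.28 in proteoglycans, 0.17 in proteases and inhibitors and 0.14 in cytoskeletal and surface genes. Negative values came from Col18a1 (-0.02 ± 0.05, SE) and S100a4 (-0.22 ± 0.14).

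The 3 calls were lost when any 1 of several libraries was left out. Over the 9 such fits the log2 change stayed at 0.27 to 0.41 for Col1a1, 0.29 to 0.40 for Col5a1 and 0.29 to 0.38 for Lox. The count was 0 without control replicate 2, control replicate 3, BRD0705 replicate 1 or BRD0705 replicate 2, 10 without control replicate 1, 6 without BRD0705 replicate 3, and 5, 3 and 7 without CHIR replicates 1, 2 and 3. It was 1 (Lox) after a correction of each library for GC content and transcript length, 12 with DESeq2 and 18 with no low-count filter. The share of all tested genes that passed in each of these fits is not given. The counts therefore do not tell a change in these genes from a change in all genes.

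Of the genes that passed in neither comparison, the most abundant of each role stood as follows. Col1a2 was at 445, 371 and 397 CPM in control, 438, 443 and 461 in BRD0705 and 471, 485 and 403 in CHIR, so that control replicate 1 lay within both inhibitor groups. Fbln2, a fibulin of elastic fibres, was at 392, 329 and 346, then 414, 430 and 437, then 411, 448 and 354 CPM. BRD0705 cleared control and CHIR did not, with log2 changes of 0.26 ± 0.07 and 0.18 ± 0.07 (SE). Loxl2, which crosslinks type IV collagen, was at 240, 207 and 194, then 240, 247 and 234, then 249, 253 and 214 CPM, and both inhibitor groups overlapped control.

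Fn1 was at 2446, 2303 and 2296 CPM in control, 2787, 2790 and 2385 in BRD0705 and 2403, 2701 and 2533 in CHIR. Both inhibitor groups had a library below control replicate 1. Dcn, decorin, a proteoglycan that binds fibrils, was at 67.6, 56.6 and 62.6, then 74.6, 72.6 and 72.2, then 73.7, 81.3 and 62.3 CPM. BRD0705 cleared control, and CHIR replicate 3 lay inside the control range. Timp2 was at 158, 145 and 150, then 162, 176 and 181, then 192, 181 and 155 CPM, again with CHIR replicate 3 inside the control range. Vim, vimentin, the intermediate filament of mesenchymal cells, was at 395, 319 and 310, then 346, 348 and 369, then 379, 373 and 308 CPM. Its highest and lowest libraries were control replicate 1 and CHIR replicate 3, and its log2 change was 0.05 ± 0.08 for either inhibitor.

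**Figure D3:**
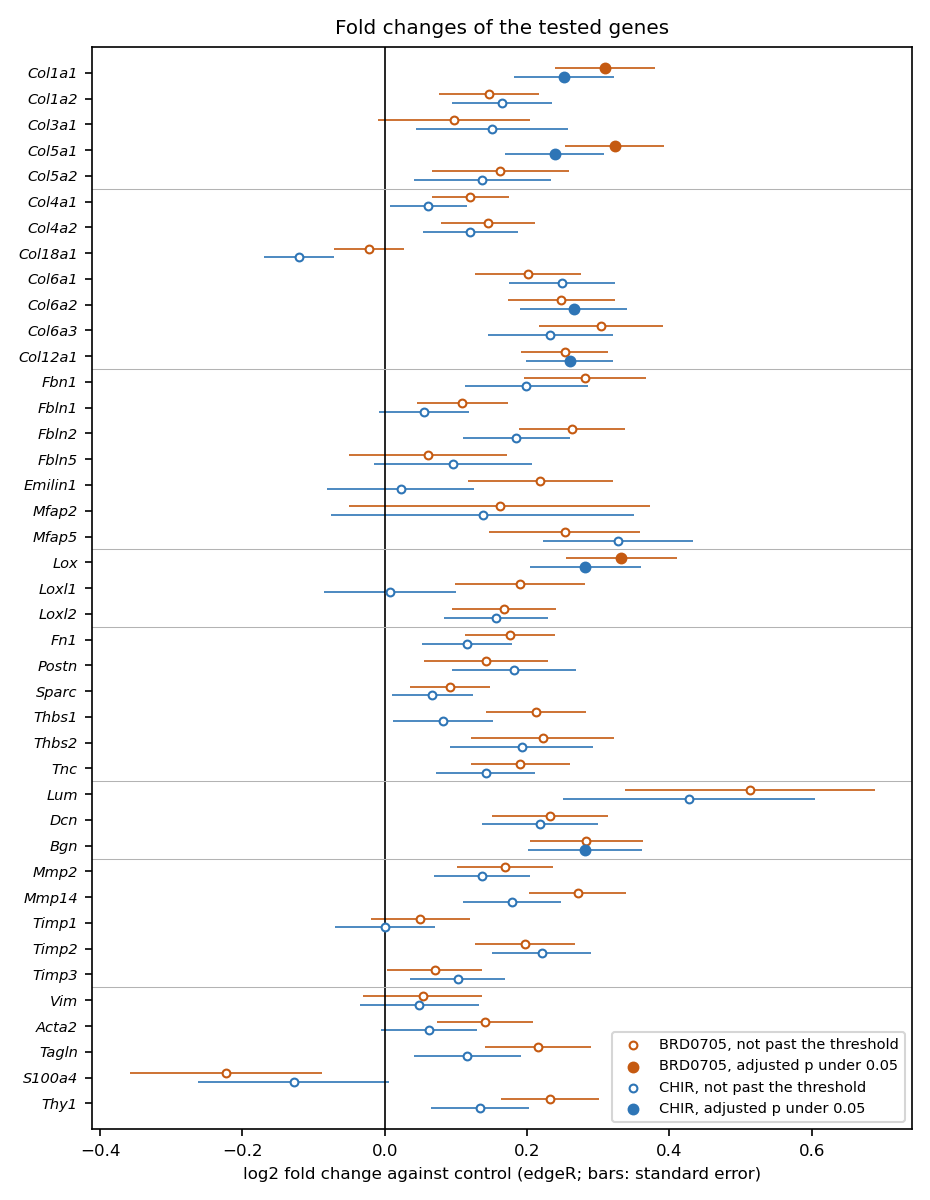
Log2 fold change against control (horizontal axis, bars are the standard error of the edgeR fit) of the 41 tested genes, ordered by role, for BRD0705 and CHIR; filled points have an adjusted p under 0.05. Points lie right of 0 for 39 of the 41 genes with BRD0705 and for 39 with CHIR, and 3 and 6 of them are filled.

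The second comparison set CHIR against control. Here 6 of the 41 genes rose and 0 fell; of all tested genes 6.3% passed in either direction and 2.52% were higher. They were Col1a1, Col5a1 and Lox again, with Col6a2 and Col12a1, a chain of the collagen that lies on fibril surfaces, and Bgn, the proteoglycan biglycan. Both comparisons use the same control libraries, so the shared genes are not independent. Col12a1 (chr9:79598987-79721141) was at 140, 124 and 139 CPM in control and 163, 171 and 148 in CHIR, without overlap, and rose by 0.26 ± 0.06 (SE; edgeR adjusted p = 0.0156). In BRD0705 it was at 157, 160 and 163 CPM, also clear of control (0.25 ± 0.06, edgeR adjusted p = 0.0507). Col6a2 (chr10:76595756-76623630) was at 59.5, 51.1 and 52.9 CPM in control and 64.2, 70.4 and 61.9 in CHIR, without overlap (0.27 ± 0.08, edgeR adjusted p = 0.0432). With BRD0705 it was at 70.5, 64.6 and 59.1 CPM, the last of which lay within the control range.

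The other 4 overlapped control. Col1a1 was at 1615, 1783 and 1553 CPM in CHIR, Col5a1 at 299, 304 and 256, Lox at 850, 933 and 704, and Bgn (chrX:73483601-73495936) at 561, 619 and 514. In each of them CHIR replicate 3 was below control replicate 1, which for Bgn was 523 CPM with 446 and 425 in the other control libraries. The log2 fold change was 0.25 ± 0.07 for Col1a1 (edgeR adjusted p = 0.0407), 0.24 ± 0.07 for Col5a1 (0.0481), 0.28 ± 0.08 for Lox (0.0384) and 0.28 ± 0.08 for Bgn (0.0425). With BRD0705, Bgn was at 599, 587 and 511 CPM (0.28 ± 0.08, edgeR adjusted p = 0.0848).

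Again 39 of the 41 had a log2 fold change above 0, with a median of 0.14 against -0.0091 over all tested genes, and 18 had an unadjusted p under 0.05, as did 20.5% of all tested genes. Only 5 (12.2%) were without overlap above control, Col6a2, Col12a1, Mfap5, Lum and Mmp14, close to the 11% of all tested genes. As with BRD0705, the genes varied together, so these counts are not independent observations. Col18a1 was the 1 gene without overlap below control, at -0.12 ± 0.05 (SE; edgeR adjusted p = 0.164), where 14.1% of all tested genes were. The medians were 0.28 in proteoglycans, 0.23 in other collagens, 0.16 in fibrillar collagens and in crosslinkers, 0.14 in elastic fibre genes and in proteases and inhibitors, 0.13 in glycoproteins and 0.06 in cytoskeletal and surface genes. Without CHIR replicate 3 there were 17 calls, without control replicate 1 there were 7, without control replicate 3 or CHIR replicate 1 there was 1, and without control replicate 2 or CHIR replicate 2 there were 0. Without BRD0705 replicate 2 there were 4. With library sizes alone as scaling the count was 1 (Col12a1), and with no low-count filter 11. As for BRD0705, the share of all tested genes that passed in each of these fits is not given.

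**Figure D4:**
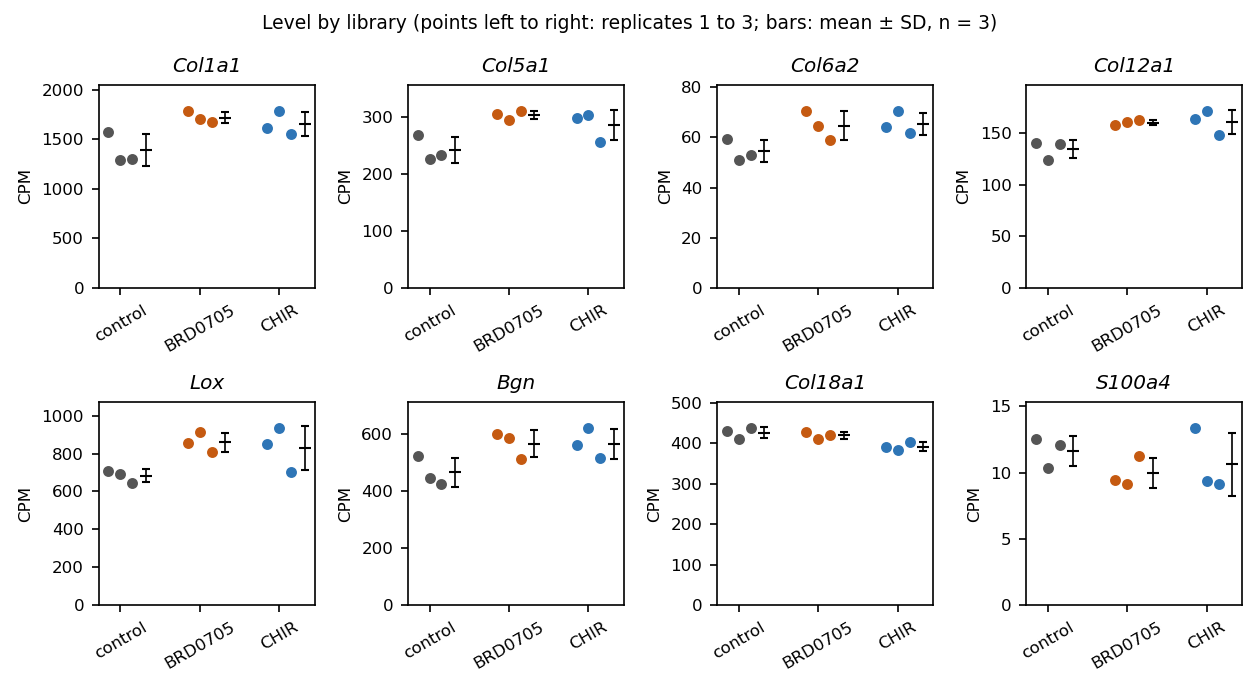
CPM in each of the 9 libraries (points, replicates 1 to 3 from left to right; bars are mean ± SD, n = 3) of the 6 genes past the threshold against control and of Col18a1 and S100a4. Control replicate 1 is the highest control library in each of the 6, and CHIR replicate 3 the lowest CHIR library in 6 of 6.

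The inhibitors were then set against each other. None of the 41 genes differed between the inhibitors by edgeR's test (0 at an adjusted p under 0.05 and 0 at an unadjusted p under 0.05; also 0 by DESeq2 and by limma voom), where 7.77% of all tested genes passed and 22.5% had an unadjusted p under 0.05. The log2 differences ran from -0.10 (S100a4) to 0.20 (Emilin1), with a median of 0.03. Their standard errors were 0.05 to 0.21, and edgeR adjusted p-values 0.246 to 0.991. A p that misses the threshold does not show that the inhibitors act alike on these genes, and their doses are not given in the labels.

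The libraries also differed in how counts followed GC content. Over tested genes, Spearman's rho between the deviation of log2 CPM and GC content was 0.19, -0.29 and -0.16 in control replicates 1 to 3, 0.28, 0.08 and 0.21 in BRD0705 and -0.11, -0.12 and -0.06 in CHIR. The median GC content was 52.5% in the 41 genes and 49.7% in the 15135 tested genes with a value. After the correction for GC content and length, mean deviations of the 41 genes were 0.0019, -0.18 and -0.14 in control, 0.05, 0.04 and 0.06 in BRD0705, and 0.12, 0.14 and -0.08 in CHIR. The order of the libraries within control and within CHIR was as before, the median log2 change was 0.16 for BRD0705 and 0.17 for CHIR, and CHIR had 9 calls. Beyond this correction, the part of GC content in the results was not tested.

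Further lists held genes that act around the matrix. Of 19 collagen-processing genes, which hydroxylate, fold and trim procollagen, 0 rose and 1 fell in each comparison with control: Ppib, a collagen prolyl isomerase, with BRD0705 (-0.27 ± 0.06, SE; edgeR adjusted p = 0.0251) and Pcolce2, an enhancer of procollagen cleavage, with CHIR (-0.29 ± 0.08, edgeR adjusted p = 0.0435). Of 19 alternative fits, which include leaving out each library in turn, 4 lost the call of Ppib (without control replicate 2 or 3 or BRD0705 replicate 1 or 2) and 11 that of Pcolce2. For Pcolce2 these include every fit that left out 1 library except CHIR replicate 3, and its value fell to -0.19 without CHIR replicate 1. The list's median log2 changes were 0.04 and 0.05, and P4hb, the most abundant, averaged 554 CPM. Of 22 actin and contractile genes 0 passed in any comparison, with medians of 0.08 and 0.03, and Actg1 averaged 2460 CPM. Of 11 basement membrane genes, Hspg2, perlecan, rose with BRD0705 (0.25 ± 0.06, edgeR adjusted p = 0.0488) and 0 passed with CHIR, and Nid2 averaged 717 CPM. The call of Hspg2 was lost in 10 of the 19 alternatives, among them every control library and BRD0705 replicates 1 and 2 left out in turn, CHIR replicate 2 left out and a replicate block. After the correction for GC content and length its value was 0.09 (edgeR adjusted p = 0.50).

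In the TGF-β pathway, a main inducer of matrix genes in fibroblasts, 1 of 17 genes rose with BRD0705 and 2 rose and 1 fell with CHIR. Ltbp2, a latent TGF-β binding protein of microfibrils, rose with BRD0705 (0.31 ± 0.07, SE; edgeR adjusted p = 0.0395). The correction for GC content and length gave 0.19 (edgeR adjusted p = 0.164), and the call was lost in 6 of 19 alternatives, including those without control replicate 2 or 3 or BRD0705 replicate 1 or 2. The ligand Tgfb1 rose with CHIR by 0.23 ± 0.06 and the receptor Tgfbr1 by 0.30 ± 0.08 (edgeR adjusted p = 0.0328 for both). Each call was lost in 5 of 19 alternatives: with library size only for both, without control replicate 2 or 3 or CHIR replicate 2 or 3 for Tgfb1, and without control replicate 1 or 3 or CHIR replicate 1 or 2 for Tgfbr1. Ccn2, a secreted target of TGF-β and of the YAP-TEAD factors, fell with CHIR (-0.41 ± 0.06, edgeR adjusted p = 0.000825) in all 19 alternative fits as well. Between the inhibitors Ccn2 was higher with BRD0705 (0.34 ± 0.06, edgeR adjusted p = 0.00311), as was Ccn1 (0.29 ± 0.07, edgeR adjusted p = 0.0103).

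Among 15 matrix receptors, 0 passed with BRD0705, and Itga1, a collagen-binding integrin, fell with CHIR (-0.61 ± 0.18, SE; edgeR adjusted p = 0.0474) at a mean of only 3.68 CPM. That call was lost in 13 of 19 alternatives, including DESeq2, limma voom and each library left out in turn except control replicate 1. Pdgfra, a growth factor receptor of mesenchymal cells, was higher with BRD0705 than with CHIR (0.53 ± 0.14, edgeR adjusted p = 0.0300), and Itgb1 averaged 198 CPM. The call of Pdgfra was lost in 6 of 19 alternatives, including DESeq2 and those without BRD0705 replicate 1 or 3 or CHIR replicate 1 or 3. None of the 14 tested mesenchymal transcription factors and none of the 28 tested Hox genes passed by edgeR in any comparison; with BRD0705, 2 and 4 of them had an unadjusted p under 0.05, and with CHIR 1 and 0. Of the pluripotency genes, Esrrb (0.22 ± 0.05, edgeR adjusted p = 0.00734) and Klf4 (0.19 ± 0.05, 0.0369) rose with CHIR and 0 of 10 passed with BRD0705. Esrrb passed in all 19 alternatives, and the call of Klf4 was lost in 6, with library size only and without any 1 control library or CHIR replicate 2 or 3. Between the inhibitors Klf4 (-0.35 ± 0.05, edgeR adjusted p = 0.00066), Esrrb (-0.15 ± 0.05, 0.0474) and Tdgf1 (-0.21 ± 0.06, 0.0321) were lower with BRD0705. Klf4 passed in all 19 alternatives, while the call of Esrrb was lost in 13 of 19, including each library left out in turn except control replicate 1. That of Tdgf1 was lost in 7 of 17, including those without BRD0705 replicate 1 or 3 or any 1 CHIR library.

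Marker lists of other lineages held few calls. Sox1, a neural factor, fell with CHIR (-0.76 ± 0.19, SE; edgeR adjusted p = 0.0203) at a mean of 3.57 CPM, and was higher with BRD0705 than with CHIR (0.67 ± 0.19, edgeR adjusted p = 0.0383). Sox7, an endoderm factor, was also higher with BRD0705 than with CHIR (0.68 ± 0.19, edgeR adjusted p = 0.0369). With CHIR against control the call of Sox1 was lost in 3 of 19 alternatives, without control replicate 2 or 3 or CHIR replicate 2. Between the inhibitors its call was lost in 9, including those without control replicate 2, BRD0705 replicate 1 or 3 or CHIR replicate 2 or 3. That of Sox7 was lost in 6, including those without control replicate 2, BRD0705 replicate 1 or 2 or CHIR replicate 1 or 3. None of the tested trophoblast (2), macrophage (4), endothelial (2), muscle (2) and cartilage (3) genes passed by edgeR; in the comparisons with control, 2 had an unadjusted p under 0.05 with BRD0705 and 2 with CHIR. The most abundant genes of the lists were Map2 (5.31 CPM), Dab2 (8.25), Ascl2 (11.4), Cd68, Tek (15.2), Des and Acan (10.5). Macrophage markers summed to 47.0 to 52.4 CPM in control, 47.2 to 63.9 in BRD0705 and 53.5 to 60.7 in CHIR, and muscle markers to 34.8 to 46.8, 42.4 to 46.4 and 39.9 to 45 CPM.

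These lists followed the 41 genes to different degrees over the 9 libraries. The mean deviation of the TGF-β list had r = 0.92 and rho = 0.70 with that of the 41 genes, and r = 0.87 without the 2 libraries farthest from the median. Collagen-processing genes had r = 0.85 and rho = 0.73 (0.56 without those 2), actin and contractile genes 0.80 and 0.53 (0.52), matrix receptors 0.74 and 0.68 (0.82), mesenchymal factors 0.70 and 0.52 (0.74), basement membrane genes 0.60 and 0.57 (0.28) and Hox genes 0.38 and 0.32 (0.22). The pluripotency genes went the other way, with r = -0.33 and rho = -0.07 over the 9 libraries (-0.40 without the 2) and -0.76 on deviations from group means. The mesenchymal factors summed to 87.9 to 93.8 CPM in control, 98.2 to 103 in BRD0705 and 87.2 to 101 in CHIR. The 39 Hox genes, 23 of them under a mean of 1 CPM, summed to 37.5 to 39.5, 44.8 to 45.8 and 37.6 to 41.0 CPM. Their sum was thus higher in every BRD0705 library than in any other library. The median log2 change of the 28 tested Hox genes was 0.25 with BRD0705 and 0.07 with CHIR. The pluripotency genes summed to 4522 to 4581, 4419 to 4586 and 4614 to 4773 CPM. The part of the cell mixture in the results for the 41 genes was not tested.

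**Figure D5:**
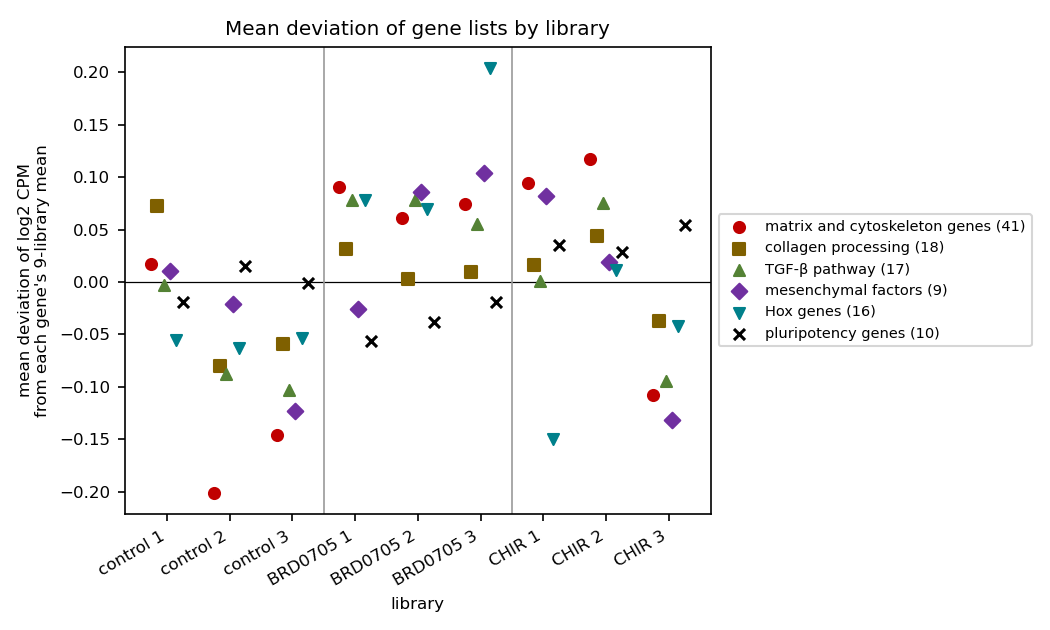
Mean deviation of log2 CPM from each gene's 9-library mean (vertical axis) for the 41 genes and 5 other lists in each library (number of genes in parentheses). The 41 genes, the TGF-β list and the collagen-processing genes are below 0 in control replicates 2 and 3 and in CHIR replicate 3. The mesenchymal factors and the Hox genes are too. The Hox genes are also below 0 in control replicate 1 (-0.06) and CHIR replicate 1 (-0.15), and the TGF-β list is at -0.003 in control replicate 1.

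Genes outside the list with the most similar pattern were sought among 9525 tested genes whose mean log2 CPM reached 3. The 10 with the highest r to the mean of the 41 over the 9 libraries were Angptl2 (0.966), Bmp1 (0.960), Mrc2 (0.958), Gtf3c1 (0.945), Cav1 (0.944), Akt1 (0.936), Lcn2 (0.936), Ltbp3 (0.933), App (0.932) and Serpinf1 (0.930). Bmp1 trims procollagen and Ltbp3 binds latent TGF-β, and both are in the lists above. Mrc2 takes up collagen, and Cav1 is the main caveolin. On deviations from group means the 10 had r of 0.86 (Ltbp3) to 0.98 (Bmp1). In all, 29 of the 9525 (0.305%) had r over 0.9, against 16 of the 41 (39.0%), whose r is with the mean of the other 40.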

How the data were processed

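RNA sequencing libraries from 9 samples were analysed, 3 per group, grouped and numbered by their labels. The authors deposited raw counts, whole numbers for each gene symbol, in 52264 rows; the submitters' processing notes name RSEM, DESeq2 and mm10, with no version or role. Annotation, strand use and the counting options are not given in the sources used here. Extraction kits differ between the design text and the protocols of the samples, and the molecule label says polyA RNA where the protocol names RiboZero, so which RNA was selected is unresolved. A second, normalized table was not used.

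The genes and all companion lists were chosen with earlier results of these data known. Counts were tested with edgeR 4.0.16 (R 4.3.3): TMM scaling, filterByExpr with a minimum count of 10, 3 group means in one quasi-likelihood fit with 6 residual degrees of freedom, 2-sided, Benjamini-Hochberg adjustment over 15366 genes, threshold 0.05. CPM was taken over library sizes after TMM scaling, and a prior count of 2 was added for log2 CPM. Correlations are descriptions over genes with a mean CPM of at least 1. Each gene past the threshold was named with every library's value, as was the most abundant of each role among the rest, the genes past the threshold and the most abundant gene of each companion list, and the 10 most similar genes. The most abundant gene of 1 companion list is not reported here. Genes singled out for r, slope or a negative change were chosen after their values were seen.

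Positions and promoters are from RefSeq GRCm38.p6, the assembly known as mm10, and transcript length and GC content from GENCODE vM39, matched by symbol for 49494 rows and by an older symbol for 121. On these annotations 22 of the 42 genes overlap a gene on the opposite strand, and 4 (Col3a1, Loxl2, Timp2, S100a4) one on the same strand; without strand, such reads cannot be told apart. The fit was tested on simulated counts with trended dispersions, for BRD0705 against control. It recovered 28% of genes changed by 0.25 on the log2 scale, 64% at 0.5 and 90% at 1. Of its calls, 2.4% were false. The changed genes were drawn from all tested genes, whereas the median expression percentile of the 41 was 86.9. These shares therefore do not give the recovery for the 41 genes. Alternatives were a replicate block, DESeq2 1.42.0, limma voom (limma 3.58.1), other scalings and filters, a GC and length correction by splines with 5 degrees of freedom, only the 2 groups compared, and leaving out each library.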

Additional observations from a re-analysis of the deposited data

How the results depend on the processing

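In the comparison of BRD0705 with control, 3 genes passed. The count was 5 with library size only, with a mean CPM of at least 1 and with only the 2 groups compared, 12 with DESeq2, 18 with no low-count filter and 1 with the GC and length correction. Leaving out 1 library gave 0 to 10. For CHIR against control, where 6 passed, the count was 1 with library size only, 11 with no low-count filter and 10 with the GC and length correction and replicate block together, and leaving out 1 library gave 0 to 17. Between the inhibitors every alternative gave 0. These counts stand without the share of all tested genes that passed in the same fit. They do not tell a change in these genes from a change in all genes. Replicate numbers only name the libraries: same-numbered libraries correlated at -0.0012 on deviations from group means, and others at 0.00062. With a replicate block 5 genes passed for BRD0705 (Bgn and Mmp14 in addition) and 7 for CHIR (Col6a1 in addition), and with the GC and length correction and block 2 (Lox and Bgn) for BRD0705.

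The median log2 changes kept their sign in every alternative for both comparisons with control, with 0.16 to 0.28 for BRD0705 and 0.11 to 0.22 for CHIR when 1 library was left out, and -0.03 to 0.08 between the inhibitors. The median pairwise correlation was 0.64 to 0.76 when 1 library was left out. Without Fn1, Col1a1 and Sparc, the 3 most abundant genes, the summed level was 5840 CPM in control, 6671 in BRD0705 and 6491 in CHIR. When 1 library was left out, the change of Col18a1 with BRD0705 ran from -0.037 to 0.0049, that of Vim with BRD0705 from -0.0034 to 0.17 and that of Vim with CHIR from -0.0084 to 0.17, with the change of sign without control replicate 3 in each. Of the 47 single genes and comparisons tried, alternatives left 695 values on their side of the threshold and moved 152 out of it and 41 into it. Beyond the construction of each alternative, the cause was not tested.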
